A study of Rattus norvegicus with 16 samples.

Results

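The change between the 3rd and the 7th day of overload was examined in the plantaris muscle of the rat, by setting 4 arrays of muscle taken 7 days after surgery against 4 arrays taken 3 days after surgery. These 8 arrays are part of 16, and every transcript cluster with exactly 1 gene symbol was compared, which gave 14557 genes once the brightest cluster of each gene was kept. The animals were Sprague Dawley rats described as retired breeders. In the operated groups both Achilles tendons had been excised, so that the gastrocnemius and soleus no longer bore load and the plantaris carried it alone, a model of muscle growth called synergist ablation. The day 7 and day 3 groups therefore share strain, age class, operation and tissue and differ in the time after surgery. The 4 control arrays (day 0, no overload) and 4 arrays at day 28 are given beside them as levels. No group had a sham operation, so that load and the response to surgery cannot be told apart, and the labels number the replicates without saying that each came from its own animal. The p-values thus measure the spread among these samples, and part of it could be technical.

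Overloaded muscle passes through an early inflammatory phase, in which monocytes and macrophages enter and satellite cells and stromal cells divide, and then a phase of fibre growth, in which myoblasts fuse with fibres and the matrix is rebuilt. Macrophages clear debris early and later support myoblast differentiation. Fibres that are regenerating or remodelling re-express genes of embryonic muscle, among them the embryonic myosin heavy chain and the fetal acetylcholine receptor subunit.

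The values are log2 signals of Affymetrix Rat Gene 2.1 ST arrays as deposited, on which a difference of 1 is a 2-fold change and weak signals are compressed. A difference is given as day 7 minus day 3 (4 arrays per group), with its standard error (SE) from limma's fit. That SE draws on the spread within all 4 days (16 arrays) and is moderated across genes. It can therefore differ from the SE of the 8 arrays alone. A gene rose or fell where limma's adjusted p was under 0.05 over all 14557 genes. Of all genes 15.3% passed, 6.02% rising and 9.23% falling, and the count of each list is to be read against these shares. A gene is called dim at a day when its mean there was below the array median over every cluster, and a difference from a dim day is a lower bound. Array medians over the tested genes were 4.54 to 4.59 at day 7 and 4.65 to 4.71 at day 3. Arrays of the same day correlated at 0.985 to 0.989 across genes, and arrays of different days at 0.967 to 0.983. The first principal component of the 8 arrays held 46.8% of their variance and placed the day 7 arrays between 20.6 and 34.5 and the day 3 arrays between -38.1 and -17.4. Genes of skeletal muscle fibres marked every array as muscle, with Acta1, the skeletal alpha-actin, at 13.56 ± 0.04 at day 7 and 13.48 ± 0.03 at day 3, and Ckm, the muscle creatine kinase, at 13.00 ± 0.02 at day 7 and 12.97 ± 0.14 at day 3 (SD, n = 4 each).

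Transcripts of dividing cells and of macrophages were lower at day 7 than at day 3, with 30 of 30 mitosis genes and 30 of 32 macrophage markers falling. Developmental contractile genes (8 of 10) and genes of the neuromuscular junction (7 of 11) and of calcium release (8 of 11) rose from day 3 to day 7. Mymk, which myoblasts need to fuse, rose as well. Of 9 fibrillar collagens 1 passed the threshold (11.1%, against 15.3% of all genes). In numbers, 2221 of 14557 genes (15.3%) passed the threshold, of which 877 (6.02% of all genes) rose and 1344 (9.23%) fell. A change of at least 2-fold was found for 158 rising (1.09%) and 477 falling genes (3.28%), 635 in all (4.36%), and one of at least 4-fold for 14 and 70. For 2616 genes (18.0%) the range of the day 7 arrays was separate from that of the day 3 arrays. The median difference over all genes was 0.00 (-0.004 before rounding), with quartiles of -0.21 and 0.19. The balance between rising and falling genes depended on scaling: with each array centred on its median over the tested genes, which moves all differences by 0.10, 1374 genes rose and 1042 fell. Rises thus made up 56.9% of the calls with that centring, 53.5% with centring on the brighter 50% of genes and 39.5% as deposited.

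**Figure D1:**
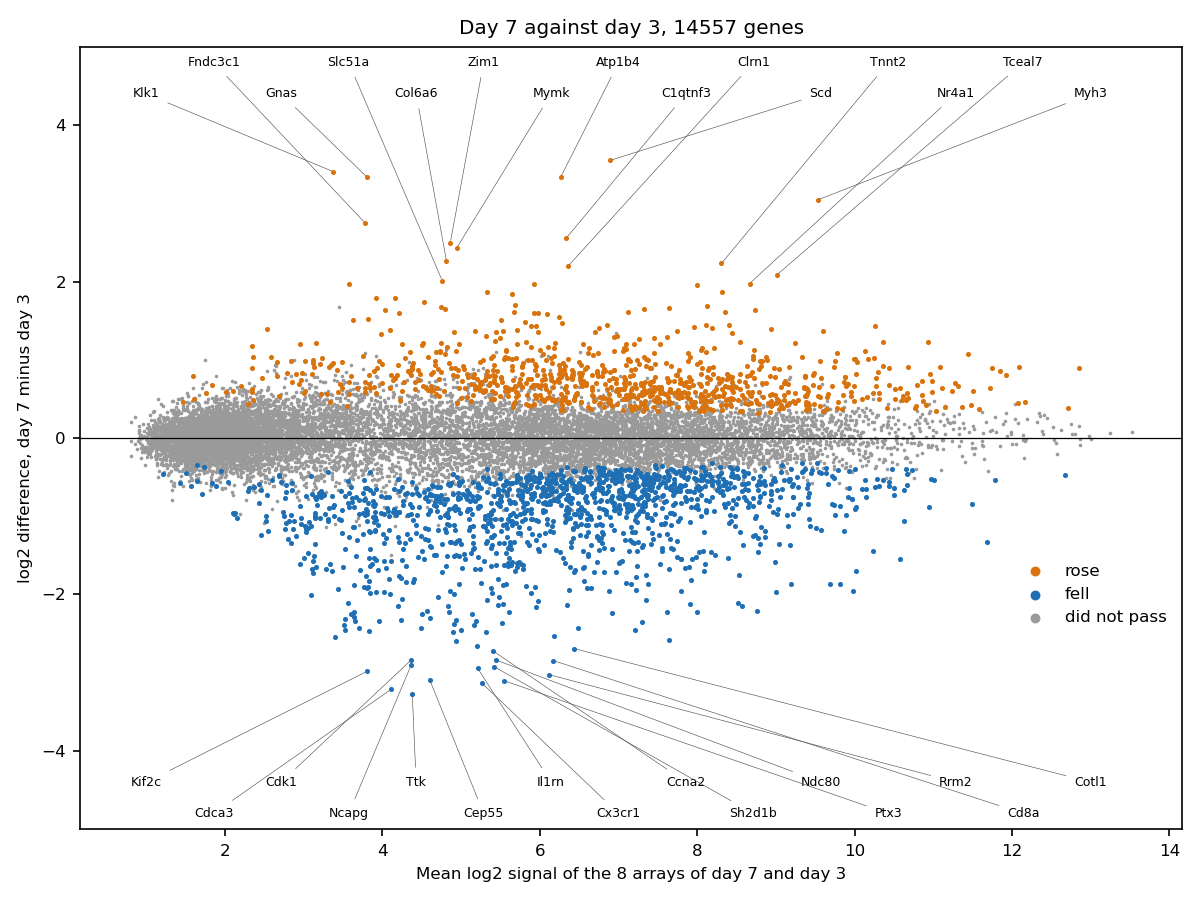
Difference between day 7 and day 3 (vertical axis, log2, mean of 4 arrays each) against the mean log2 signal of the 8 arrays (horizontal axis) for 14557 genes. Orange points are the 877 genes that rose, blue points the 1344 that fell and grey points the rest; named genes are the 15 largest rises and 15 largest falls, and large falls outnumber large rises.

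The largest rise was that of Scd, the stearoyl-CoA desaturase that makes monounsaturated fatty acids. Its signal was 9.77, 8.18, 8.42 and 8.32 on the day 7 arrays, against 4.61, 5.12, 5.01 and 5.75 on the day 3 arrays. The groups lay far apart, and the difference was 3.55 ± 0.40 (adjusted p = 1.2e-05). At day 0 and day 28 Scd averaged 5.54 and 6.50, so that day 7 held the highest mean of the 4 days. Klk1, tissue kallikrein, a protease that releases kinins, was at 6.03, 4.97, 4.39 and 4.93 at day 7 and at 1.53, 1.58, 1.79 and 1.80 at day 3. It was dim on all day 3 arrays, and its difference of 3.41 ± 0.25 is a lower bound (adjusted p = 3.7e-07). Its mean was 1.69 at day 0 and 1.74 at day 28, so that day 7 was the only day on which its mean signal stood clear of the dim range.

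Atp1b4, a muscle protein of the Na,K-ATPase beta-subunit family that sits at the nuclear envelope in placental mammals, had signals of 7.79, 7.17, 7.77 and 9.01 at day 7 and 4.91, 4.26, 4.84 and 4.39 at day 3 (difference 3.34 ± 0.28, adjusted p = 7.4e-07). The groups were separate, and day 0 lay between them at 6.27. C1qtnf3, a secreted C1q/TNF-related protein, averaged 7.61 ± 0.31 at day 7 and 5.06 ± 0.39 at day 3 (difference 2.55 ± 0.19, adjusted p = 3.7e-07). Slc51a, a subunit of the organic solute transporter, averaged 5.77 ± 1.02 at day 7 and 3.75 ± 0.47 at day 3 (difference 2.01 ± 0.36, adjusted p = 9.5e-04). Tceal7, Clrn1 and Fndc3c1 rose by 2.08, 2.19 and 2.75, the last as a lower bound.

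Genes of mitosis, which build the spindle, load chromosomes onto it and split the cell, fell together. Of 30 measured, 30 fell (background 9.23%), with a median difference of -2.25 against 0.00 over all genes, and for 29 every day 7 array lay below every day 3 array (background 10.8%). Ttk, the kinase of the spindle checkpoint, was at 2.77, 2.83, 2.51 and 2.86 at day 7 and 5.51, 6.26, 5.37 and 6.94 at day 3. Every day 3 array was high, the day 7 arrays were dim, and the difference of -3.28 ± 0.25 is a lower bound (adjusted p = 3.8e-07). The other mitosis genes among the 15 largest falls were Kif2c, a microtubule-depolymerising kinesin, Cdk1, the kinase that drives entry into mitosis, Ndc80, a kinetochore protein, and Ccna2, cyclin A2. They differed by -2.98, -2.84, -2.84 and -2.72, where the values of Kif2c and Cdk1 are lower bounds. Cdca3, which promotes mitotic entry, Cep55, which acts at the final cut between daughter cells, and Ncapg, a condensin subunit, fell, with differences of -3.21, -3.09 and -2.90, all lower bounds; they are outside that list. The smallest differences in the list were those of Aurka (-0.97 ± 0.21) and Ccnb2 (-1.11 ± 0.24), which also passed the threshold; the other, dimmer cluster of Ccnb2 differed by -2.87.

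Genes of DNA replication followed, with 28 of 32 falling, a median of -0.88 and 0 members above 0. Rrm2, the ribonucleotide reductase subunit that supplies deoxynucleotides, was at 4.53, 4.40, 4.57 and 4.89 at day 7 and 7.40, 7.65, 7.08 and 8.36 at day 3. Its 2 groups were clearly separate, with the day 3 arrays spread more widely than the day 7 arrays, and the difference was -3.02 ± 0.35 (adjusted p = 1.6e-05). Uhrf1, which keeps DNA methylation through replication, Mcm6, part of the replicative helicase, Cdc6, which licenses origins, and Gins1, a helicase cofactor, fell, with differences of -2.13, -2.08, -1.93 and -1.84, with that of Cdc6 a lower bound. Chaf1a and Dut did not pass the threshold, with differences of -0.34 and -0.22.

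Set against day 0, 30 of the 30 mitosis genes were higher at day 3 (background 21.7%) and 10 were higher at day 7 (background 16.9%). Of the 32 replication genes, 27 were higher than day 0 at day 3 and 10 at day 7, where 4 were lower (background 14.9%). Median differences from day 0 were 2.84 at day 3 and 0.30 at day 7 for mitosis genes, and 1.17 and 0.32 for replication genes. The 2 comparisons share the day 0 arrays. At day 28 the median difference from day 0 was 0.09 for mitosis genes. In bulk tissue, fewer cells of a type and less RNA per cell cannot be told apart, for these genes and for the markers below.

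The upstream sequences of a pair of the falling mitosis genes are shown because promoters of this class are known for CCAAT boxes, bound by NF-Y, and for the cell cycle homology region, whose core letters are TTTGAA. The 130 bases before the start of Cdk1 (chr20:19265163-19265292, plus strand) and of Cdc20 (chr5:137255800-137255929, minus strand), from RefSeq on GRCr8, are written 5′ to 3′ on the strand of the gene, with every CCAAT and TTTGAA on either strand in capitals.
Cdk1: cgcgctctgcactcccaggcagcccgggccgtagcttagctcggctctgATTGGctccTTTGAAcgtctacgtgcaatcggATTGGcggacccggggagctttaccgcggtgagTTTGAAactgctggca
Cdc20: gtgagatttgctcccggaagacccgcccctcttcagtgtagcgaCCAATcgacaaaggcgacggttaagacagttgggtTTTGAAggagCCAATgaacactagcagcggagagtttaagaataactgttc
Cdc20, the activator of the anaphase-promoting complex, differed by -2.03 ± 0.24 (adjusted p = 2.1e-05); it is named for its sequence and was chosen after its values were seen. The RefSeq table held a promoter (250 bases before to 50 after the start) for 24 of the 30 mitosis genes. CCAAT, on either strand, was in 14 of them (58.3%) and in 37.7% of 27457 promoters in the table, and TTTGAA was in 14 (58.3%) and in 18.1%. Both stood in 9 (37.5%), against 7.25% of all promoters. Among 28 replication genes with a promoter, 16 (57.1%) held CCAAT and 2 (7.14%) held TTTGAA. These matches describe the letters in the window, not binding.

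Macrophage and monocyte markers fell as a group, with 30 of 32 passing the threshold and a median of -1.30. Cx3cr1, the fractalkine receptor of monocytes and macrophages, was at 3.59, 3.95, 3.98 and 3.27 at day 7 and 7.04, 6.48, 6.41 and 7.35 at day 3. The groups stood far apart (difference -3.13 ± 0.24, adjusted p = 3.7e-07), and day 0 averaged 3.26. Msr1, a scavenger receptor, was at 6.27, 7.06, 5.95 and 6.11 at day 7 and at 8.78, 9.01, 8.64 and 9.27 at day 3, again without overlap (difference -2.58 ± 0.29, adjusted p = 1.3e-05). Lyve1, a hyaluronan receptor of resident macrophages and lymphatic vessels, averaged 7.66 ± 0.72 at day 7 and 9.87 ± 0.23 at day 3 (difference -2.21 ± 0.27). Cd68, a lysosomal glycoprotein of macrophages, averaged 7.29 ± 0.24 at day 7 and 8.90 ± 0.42 at day 3 (difference -1.61 ± 0.19), and Itgam, which encodes CD11b, and Clec4d, a lectin receptor, fell, with differences of -2.16 and -2.30.

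Ccr2, the chemokine receptor by which monocytes leave the blood, differed by -0.85 ± 0.24 (adjusted p = 0.021), and its call was lost without day 3 replicate 4 (adjusted p = 0.064) or day 7 replicate 3 (0.082). Marco and Timd4 did not pass the threshold (-0.24 and -0.16). The summed linear signal of the 32 markers ranged from 5398 to 8000 at day 7, from 15067 to 20601 at day 3 and from 837 to 1044 at day 0. The day 7 sums were thus all below the day 3 sums and all above those of day 0. Against day 0, 32 of 32 were higher at day 3, 28 at day 7 and 20 at day 28 (background 6.29%). The mitosis list moved with these markers, its summed signal being 508 to 579 at day 7 and 1616 to 3079 at day 3; the part of either in the other was not tested.

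Secreted signals of inflammation fell in part, with 12 of 44 cytokines and chemokines lower and a median of -0.11. Il1rn, the natural antagonist of the interleukin-1 receptor, was at 3.59, 5.11, 2.96 and 3.29 at day 7 and 6.42, 7.14, 6.45 and 6.72 at day 3. The day 3 arrays were all high and the difference was -2.95 ± 0.33 (adjusted p = 1.2e-05). Il18, a cytokine matured by the inflammasome, fell by 2.43. Ccl2, which attracts monocytes through Ccr2, averaged 7.17 ± 0.86 at day 7 and 8.71 ± 0.22 at day 3 (difference -1.55 ± 0.30, adjusted p = 0.0017), with 3.73 at day 0, and Ccl20 fell by 1.57, a lower bound. Cxcl13, a B-cell chemoattractant, differed by 0.77 ± 0.40 and did not pass (adjusted p = 0.23). Il34, a ligand of the macrophage receptor Csf1r, was the 1 member that rose (0.81 ± 0.24, adjusted p = 0.029), a call lost without day 3 replicate 1, 3 or 4 or day 7 replicate 2 or 3 (adjusted p up to 0.093). Ptx3, a soluble pattern-recognition protein listed here with fibroblast markers, was at 4.80, 3.90, 3.90 and 3.38 at day 7 and 7.21, 7.64, 7.04 and 6.52 at day 3, a difference of -3.10 with no overlap. Cotl1, an actin-binding protein of no list here, averaged 5.09 ± 0.61 at day 7 and 7.78 ± 0.27 at day 3 (difference -2.69 ± 0.27, adjusted p = 4.5e-06).

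Of the other white-cell lists, 5 of 20 neutrophil and early monocyte markers fell, with Arg1, arginase 1, at -1.78 ± 0.20 and Trem1, a receptor that amplifies inflammation, at -1.70 ± 0.32. That count was 3 without day 3 replicate 2, day 7 replicate 3 or day 7 replicate 4, and 11 of the 20 were dim at both days. Of 24 genes of dendritic cells and antigen presentation, 5 fell (20.8% called, against 15.3% of all genes), among them RT1-DMa and RT1-DMb, the chaperones that load class II molecules (-1.29 ± 0.17 and -1.10 ± 0.20). In the T and natural killer cell list, 3 of 29 rose and 2 fell (17.2% called, near the 15.3% of all genes), and the median was 0.19. Of these 29 genes, 10 were dim at both days. Cd8a was at 5.11, 4.48, 4.84 and 4.57 at day 7 and 7.05, 7.98, 7.50 and 7.85 at day 3, with every day 3 array above every day 7 array (difference -2.84 ± 0.22, adjusted p = 4.7e-07). In the rat this chain is known on natural killer cells and some macrophages as well as on T cells. Cd8b, which marks T cells, differed by -1.14 ± 0.26.

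Cd28, the costimulatory receptor of T cells, was at 7.12, 6.14, 6.67 and 6.20 at day 7 and 5.19, 4.76, 4.97 and 4.42 at day 3, higher on every day 7 array (difference 1.70 ± 0.25, adjusted p = 1.9e-04). Gzmk, a granzyme of memory T cells, was higher by 0.67 ± 0.16, a lower bound since it was dim at both days (means of 2.54 at day 7 and 1.87 at day 3). Sh2d1b, a signalling adaptor of natural killer cells, fell by 2.92 to a mean of 3.95 at day 7, against 6.88 at day 3. Of 9 mast cell markers, 0 rose and 0 fell by limma's adjusted p (0 had an unadjusted p under 0.05), and of 11 B-cell markers 1 fell, Cd22 (-1.05 ± 0.19). That was 9.09% of the B-cell list, near the 9.23% of all genes that fell. The mast cell and B-cell lists each held 6 members that were dim at both days.

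Lysosomal genes, which are abundant in macrophages and also present in fibres, fell for 14 of 24 members with a median of -0.60. Lgmn, the protease legumain, averaged 8.76 ± 0.17 at day 7 and 10.63 ± 0.24 at day 3 (difference -1.86 ± 0.13, adjusted p = 3.7e-07). Ctsl, cathepsin L, averaged 9.50 ± 0.47 at day 7 and 10.95 ± 0.16 at day 3 (difference -1.45 ± 0.17), and Grn, progranulin, fell by 0.97. Complement genes were split, with 4 of 9 lower and 1 higher. C3ar1, the receptor of the C3a fragment, fell by 1.75 and C1qb, part of the first component, fell by 1.14, while Serping1, the inhibitor of that component, rose by 0.72 (adjusted p = 0.014), a call lost without day 3 replicate 4 (adjusted p = 0.056).

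**Figure D2:**
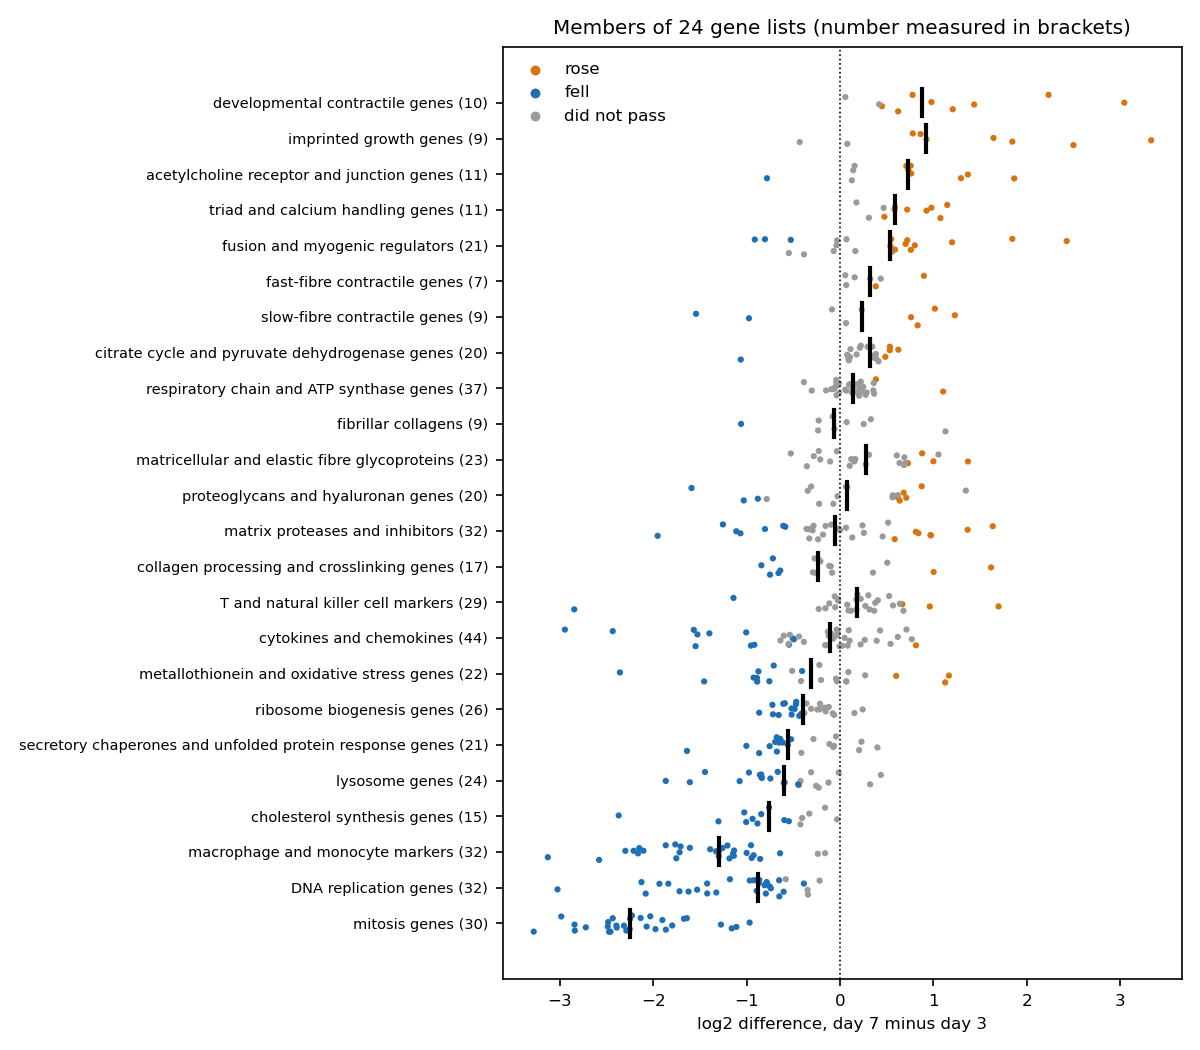
Difference between day 7 and day 3 (horizontal axis, log2) for the measured members of 24 gene lists, 1 row per list. Points are genes, orange where they rose, blue where they fell and grey where they did not pass; black bars are list medians and the dotted line marks 0. The mitosis, replication and macrophage rows lie left of 0 throughout, and the developmental contractile and triad rows right of it.

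Developmental contractile genes rose, 8 of 10 passing the threshold (background 6.02%), with a median of 0.88 and all 10 above 0. Against day 0, 5 of the 10 were higher and 1 lower at day 7 (backgrounds 16.9% and 14.9%). The counts at day 3 were 2 higher and 5 lower than day 0 (backgrounds 21.7% and 19.6%). Myh3, the embryonic myosin heavy chain, was at 11.20, 9.75, 11.41 and 11.86 at day 7 and 8.61, 7.77, 7.55 and 8.10 at day 3. No day 7 array reached down to the day 3 range, and the difference was 3.05 ± 0.35 (adjusted p = 1.4e-05). Its mean was 8.45 at day 0 and 5.83 at day 28, so that day 7 was the highest and day 28 the lowest of the 4 days, and day 28 lay below day 0 (-2.61 ± 0.35, adjusted p = 1.1e-04). Tnnt2, the troponin T of cardiac and embryonic skeletal muscle, was at 9.78, 8.94, 8.97 and 10.00 at day 7 and 6.66, 6.96, 7.33 and 7.82 at day 3, without overlap (difference 2.23 ± 0.32, adjusted p = 1.4e-04). Mybph, myosin binding protein H, Myh7b, a slow-type myosin heavy chain, and Smyd1, a methyltransferase and myosin chaperone, rose by 1.44, 1.21 and 0.98. The mean of Myh7b was 4.85 at day 7, with 5.33 at day 0 and 5.98 at day 28.

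Of 21 genes of myoblast fusion and myogenic regulation, 10 rose and 3 fell. Mymk, myomaker, the membrane protein that myoblasts need to fuse, was at 6.69, 5.20, 6.08 and 6.65 at day 7 and 3.88, 3.60, 3.12 and 4.31 at day 3. The groups did not overlap (difference 2.43 ± 0.31, adjusted p = 3.8e-05), and days 0 and 28 averaged 2.74 and 2.97. Cdkn1c, the cell cycle inhibitor p57, rose by 1.85 ± 0.24, Megf10, a receptor of satellite cells, by 1.20 ± 0.15 and Mef2c, a transcription factor of differentiating fibres, by 0.80 ± 0.10. Myog, the myogenic factor of differentiation, averaged 7.55 ± 0.72 at day 7 and 8.46 ± 0.20 at day 3, a difference of -0.91 ± 0.27 (adjusted p = 0.029). Myod1, the factor of myoblast commitment, averaged 8.16 ± 0.37 at day 7 and 7.40 ± 0.19 at day 3, a difference of 0.76 ± 0.23 (adjusted p = 0.030). The call of Myog was lost without day 3 replicate 2, 3 or 4 or day 7 replicate 3 (adjusted p up to 0.083) and in the fit of the day 3 and day 7 arrays alone (0.073), and that of Myod1 without day 3 replicate 2 or 3 or day 7 replicate 4 (up to 0.11). The count of falls in the list was 0 without day 3 replicate 4 and 1 without day 3 replicate 2 or day 7 replicate 3.

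The neuromuscular junction list held genes of the acetylcholine receptor and its anchoring, and 7 of 11 rose while 1 fell, with a median of 0.73. Chrna1, the receptor's ligand-binding alpha subunit, was at 10.90, 9.90, 8.40 and 7.79 at day 7 and 7.34, 7.46, 7.46 and 7.27 at day 3, a difference of 1.87 ± 0.44 (adjusted p = 0.0073). The groups did not overlap. Chrng, the gamma subunit of the fetal receptor, was at 6.19, 5.94, 5.33 and 6.01 at day 7 and 4.28, 4.55, 4.38 and 4.76 at day 3, without overlap (difference 1.37 ± 0.20, adjusted p = 1.7e-04). Chrne, the epsilon subunit that takes its place in the adult receptor, rose as well, by 1.30 ± 0.15 (adjusted p = 1.9e-05). Fetal and adult subunits were thus both higher at day 7 than at day 3. Lrp4, the receptor of agrin, and Scn4a, the sodium channel of the fibre membrane, rose by 0.76 and 0.76, and Gadd45a, a stress gene that denervation also raises, fell by 0.78. Against day 0, Chrna1 differed by 2.04 ± 0.44 at day 7 and 0.18 ± 0.44 at day 3, and Chrng by 1.53 ± 0.20 at day 7 and 0.16 ± 0.20 at day 3. Chrne differed from day 0 by 0.15 ± 0.15 at day 7 (adjusted p = 0.51) and by -1.15 ± 0.15 at day 3 (adjusted p = 8.3e-06). The adult subunit was thus below day 0 at day 3 and did not pass against day 0 at day 7.

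The sequences before the starts of Chrna1 (chr3:78877354-78877483, minus strand) and Chrng (chr9:95325854-95325983, plus strand) are shown since E-boxes bound by myogenic factors are known to control receptor genes. From RefSeq on GRCr8, 5′ to 3′ on the strand of the gene, with every CAGCTG, which reads the same on both strands, in capitals, they read as follows.
Chrna1: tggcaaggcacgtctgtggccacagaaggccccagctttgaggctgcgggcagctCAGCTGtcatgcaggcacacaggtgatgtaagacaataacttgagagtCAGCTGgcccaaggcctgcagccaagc
Chrng: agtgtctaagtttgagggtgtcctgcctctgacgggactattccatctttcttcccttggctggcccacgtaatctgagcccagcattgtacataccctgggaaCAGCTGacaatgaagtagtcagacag
Of 9 genes of the list with a promoter in the table, 7 (77.8%) held CAGCTG in the window from 250 bases before to 50 after the start, as did 15.1% of all 27457 promoters. In the developmental contractile list it was 2 of 8 (25%).

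Imprinted growth genes, some of which are active mainly in fetal and growing tissue, rose for 7 of 9 members with a median of 0.93. Zim1, an imprinted zinc-finger gene, was at 6.33, 5.10, 6.29 and 6.72 at day 7 and 3.68, 3.16, 3.81 and 3.81 at day 3. Its groups were separate (difference 2.50 ± 0.30, adjusted p = 2.4e-05), and day 0 (5.67) was close to day 7. Dlk1, an inhibitor of adipocyte differentiation, was at 5.41, 6.03, 6.15 and 4.89 at day 7 and 3.99, 3.81, 3.70 and 4.41 at day 3 (difference 1.64 ± 0.27, adjusted p = 4.9e-04). Every day 7 array stood above every day 3 array, and day 0 averaged 4.10. H19, the imprinted non-coding RNA next to Igf2, averaged 12.28 ± 0.29 at day 7 and 11.42 ± 0.06 at day 3 (difference 0.86 ± 0.14, adjusted p = 4.5e-04), and Nnat, neuronatin, rose by 0.93.

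Gnas, a complex imprinted locus that encodes the stimulatory G protein alpha subunit, gave signals of 5.60, 4.18, 5.80 and 6.32 at day 7 and 2.03, 2.13, 1.89 and 2.52 at day 3. The cluster used was dim at day 3, and its difference of 3.33 ± 0.40 is a lower bound (adjusted p = 2.2e-05). The other Gnas cluster ranged from 2.62 to 3.38 at day 7 and from 2.06 to 3.06 at day 3, a difference of 0.48, so that the 2 clusters of the locus gave differences of unequal size. Which transcripts of the locus each cluster measures was not tested. Against day 0, 7 of the 9 imprinted genes were higher at day 7 and 2 at day 3, and 7 were lower at day 28 than at day 7 (background 9.38%).

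**Figure D3:**
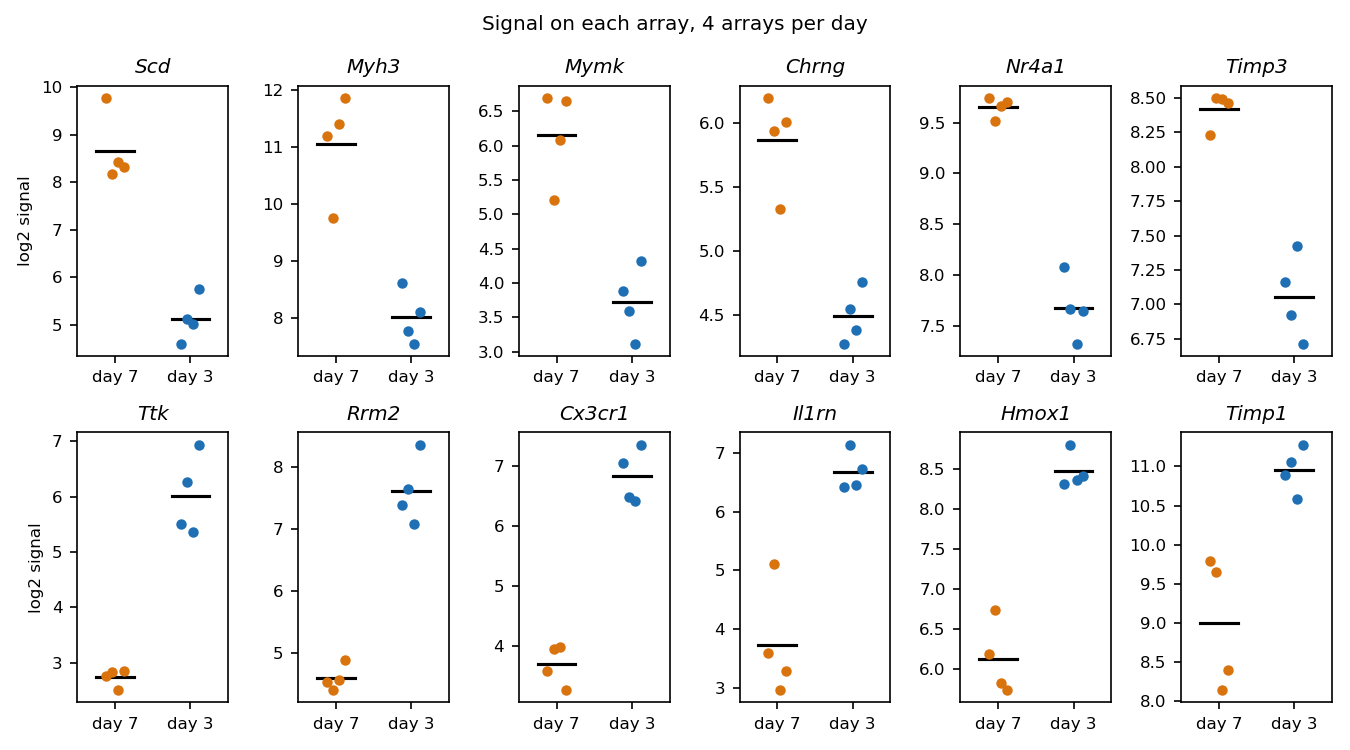
Log2 signal of 12 genes on each array, with the day 7 arrays left of the day 3 arrays in each panel. Points are single arrays (4 per day) and bars their means. The upper 6 genes rose and the lower 6 fell, and in each panel the 2 days do not overlap.

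Genes of the triad, the junction where the fibre's membrane signal releases calcium, rose for 8 of 11 members, with a median of 0.59 and all 11 above 0. Jph2, a junctophilin that ties the membranes of the triad together, was at 8.24, 8.10, 8.88 and 9.31 at day 7 and 7.64, 7.49, 7.87 and 6.94 at day 3 (difference 1.15 ± 0.24, adjusted p = 0.0033). The groups did not overlap. Its day 0 mean of 9.86 exceeded those of days 3 and 7. Jph1 rose by 0.98, Srl, the calcium-binding protein sarcalumenin, by 0.93, and Cacna2d1, a subunit of the voltage sensor, by 0.72. Sln, sarcolipin, which uncouples the calcium pump, averaged 11.98 ± 0.44 at day 7 and 10.90 ± 0.16 at day 3 (difference 1.08 ± 0.25, adjusted p = 0.0058), and its day 0 mean was 8.96. Sln was thus above day 0 on both days (3.02 ± 0.25 at day 7, adjusted p = 7.4e-08, and 1.94 ± 0.25 at day 3, adjusted p = 4.8e-06), whereas 8 of the 11 genes were below day 0 at day 3 (background 19.6%) and 4 at day 7.

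Among contractile genes of adult fibres, 4 of 9 slow-fibre genes rose and 2 fell. Casq2, the calsequestrin of slow and cardiac muscle, rose by 1.23 ± 0.25, and Myh7, the slow myosin heavy chain, averaged 10.51 ± 0.44 at day 7 and 9.49 ± 0.24 at day 3 (difference 1.02 ± 0.26, adjusted p = 0.012). Tnnt1, slow troponin T, and Atp2a2, the calcium pump of slow fibres, rose by 0.76 and 0.83. Ankrd2, a stretch-responsive protein of the sarcomere, fell by 1.54, and Tpm3, slow tropomyosin, fell by 0.97. Its relative Ankrd1, also induced by stretch, averaged 12.01 ± 0.31 at day 7 and 11.96 ± 0.20 at day 3, a difference of 0.05 ± 0.18 that turned to -0.10 after cyclic loess, and both days lay above the day 0 mean of 9.21. Casq1, the fast-fibre calsequestrin, rose by 0.90 ± 0.14 (adjusted p = 3.3e-04), while Myh4, the fastest myosin heavy chain, differed by 0.44 ± 0.21 and did not pass (adjusted p = 0.20). Against day 0, 4 of the 9 slow-fibre genes were higher at day 7 and 2 lower (backgrounds 16.9% and 14.9%). Casq2 then differed from day 0 by 2.10 ± 0.25, Myh7 by -0.85 ± 0.26, Atp2a2 by -0.20 ± 0.22 and Casq1 by -0.03 ± 0.14.

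Regulators of mitochondrial content and oxidative metabolism rose for 3 of 12. Nr4a1, an orphan nuclear receptor of muscle glucose metabolism that is also an immediate early gene, was at 9.74, 9.51, 9.67 and 9.70 at day 7 and 8.08, 7.66, 7.33 and 7.64 at day 3. The groups were far apart (difference 1.98 ± 0.14, adjusted p = 3.7e-07), and the day 0 mean was 10.05. Ppargc1a, the coactivator PGC-1alpha, was at 7.93, 8.39, 8.54 and 8.65 at day 7 and 7.50, 7.41, 7.64 and 7.02 at day 3 (difference 0.99 ± 0.19, adjusted p = 0.0013). It remained below its day 0 mean of 9.77 on both days (-1.39 ± 0.19 at day 7, adjusted p = 1.9e-05, and -2.37 ± 0.19 at day 3, adjusted p = 1.6e-08). Ppargc1b, its close relative, rose by 1.15. Perm1, a muscle regulator downstream of these coactivators, differed by 0.33 ± 0.33, did not pass (adjusted p = 0.60) and turned to -0.04 without day 7 replicate 3. Its mean was 7.15 at day 7 and 6.82 at day 3, with 10.10 at day 0.

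Lists of metabolic enzymes ranged from 5.41% called (respiratory chain) to 42.1% (glycolysis), against 15.3% of all genes. Of 37 respiratory chain and ATP synthase genes 2 rose, with a median of 0.14 that became -0.01 after cyclic loess, and the count was 1 to 3 with single arrays left out. Of 20 citrate cycle genes 4 rose (1 without day 3 replicate 4 or day 7 replicate 3, 7 without day 7 replicate 2) and 1 fell, Pdk4, the kinase that closes the pyruvate dehydrogenase gate (-1.06 ± 0.27, adjusted p = 0.012). Idh3a, a subunit of isocitrate dehydrogenase, rose by 0.63 ± 0.13. Of 27 fatty acid oxidation genes 3 rose, a count that was 0 without day 3 replicate 2, day 3 replicate 4, day 7 replicate 3 or day 7 replicate 4 and 5 without day 3 replicate 3. Of 19 genes of glycolysis and glycogen 6 rose (3 without day 3 replicate 4, day 7 replicate 3 or day 7 replicate 4) and 2 fell. Gys1, muscle glycogen synthase, rose by 0.98 ± 0.18 and Slc2a4, the insulin-responsive glucose transporter GLUT4, by 0.79 ± 0.20, whereas Slc2a1, the transporter GLUT1 found in many cell types, and Pfkl, the liver-type phosphofructokinase, fell, with differences of -0.79 and -1.04. Against day 0, 16 of the 19 glycolysis genes were lower at day 3 and 13 at day 7 (backgrounds 19.6% and 14.9%). Higher were 2 at day 3 and 1 at day 7. Of the 20 citrate cycle genes 18 and 13 were lower and 0 higher at these days. Of the 27 fatty acid oxidation genes 21 and 15 were lower, and 1 and 0 higher. Gys1 and Idh3a at day 7 differed from day 0 by -0.52 ± 0.18 (adjusted p = 0.0345) and -0.75 ± 0.13 (adjusted p = 2.6e-04).

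Of 9 fibrillar collagens, the rope-like proteins that bear tension in the matrix, 8 did not pass the threshold. The called share was 11.1%, near the 15.3% of all genes. Col1a1, the main chain of type I collagen, was at 12.24, 11.21, 11.87 and 11.80 at day 7 and 10.88, 11.51, 11.44 and 11.98 at day 3. The groups overlapped and the difference was 0.33 ± 0.22 (adjusted p = 0.39). Col3a1, type III collagen, was at 12.25, 11.74, 11.93 and 12.12 at day 7 and 11.81, 12.26, 12.01 and 12.27 at day 3, also overlapping, with a difference of -0.08 ± 0.15 (adjusted p = 0.82). Both were far above their day 0 means of 7.11 and 8.30. The 1 that fell was Col5a3 (-1.06 ± 0.21, adjusted p = 0.0021), and the list median was -0.06, or 0.04 with centring on all tested genes. Of 13 other collagens (15.4% called, near the share of all genes) 2 rose (1 without day 3 replicate 1 or 2 or day 7 replicate 1, 2 or 3). Col6a6, a chain of type VI collagen, was at 6.11, 5.19, 6.44 and 6.04 at day 7 and 3.91, 3.74, 3.97 and 3.12 at day 3, without overlap (difference 2.26 ± 0.26, adjusted p = 1.4e-05), and at 6.07 on average at day 28.

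Around these collagens the genes that fold, crosslink and cut them moved in both directions. Of 17 collagen processing genes 5 fell (3 without day 3 replicate 4) and 2 rose (1 without day 7 replicate 1). Lox, the crosslinking enzyme lysyl oxidase, averaged 8.99 ± 0.25 at day 7 and 9.83 ± 0.36 at day 3 (difference -0.84 ± 0.18, adjusted p = 0.0034), and Serpinh1, the collagen chaperone HSP47, and P4hb, a subunit of prolyl 4-hydroxylase, fell, with differences of -0.75 and -0.64. P3h2, a prolyl 3-hydroxylase, rose by 1.62. Of 32 matrix proteases and inhibitors 7 rose and 7 fell, the falls numbering 3 without day 3 replicate 2 or 4 and 4 without day 7 replicate 4. Timp1, an inhibitor of matrix metalloproteinases, was at 9.80, 9.65, 8.14 and 8.40 at day 7 and 10.89, 11.06, 10.59 and 11.28 at day 3, separate groups with a difference of -1.95 ± 0.32 (adjusted p = 4.1e-04). Timp3, an inhibitor bound to the matrix, was at 8.23, 8.50, 8.50 and 8.46 at day 7 and 7.16, 6.92, 7.42 and 6.71 at day 3, also separate and in the other direction (1.37 ± 0.19, adjusted p = 9.5e-05). Their day 0 means were 5.47 and 9.18.

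Mmp2, the gelatinase of stromal cells, was at 10.82, 10.51, 10.26 and 10.48 at day 7 and 9.35, 9.69, 9.67 and 9.48 at day 3, higher on every day 7 array (difference 0.97 ± 0.13, adjusted p = 7.5e-05). Mmp11, stromelysin 3, and Mmp15, a membrane-bound metalloproteinase, rose by 1.64 and 0.84, and Adam15 fell by 1.25. Of 20 proteoglycan and hyaluronan genes 5 rose and 3 fell. The small leucine-rich proteoglycans Ogn and Aspn rose by 0.68 ± 0.14 and 0.71 ± 0.17, while Sdc1 and Sdc4, cell-surface syndecans, and Prg4, the lubricant of sliding surfaces, fell, with differences of -1.59, -0.88 and -1.03. Of 23 matricellular and elastic fibre genes (17.4% called) 4 rose (2 without day 3 replicate 1 or day 7 replicate 1). Mfap2, of elastic microfibrils, rose by 1.37 ± 0.26 and Cilp, of cartilage and tendon matrix, by 1.00 ± 0.21. Lama2 and Lamb2, chains of the laminin of the fibre's basement membrane, rose by 0.88 and 0.59, and were 2 of 15 basement membrane genes to do so (4 without day 7 replicate 1). The called share of that list was 13.3%, near the 15.3% of all genes.

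**Figure D4:**
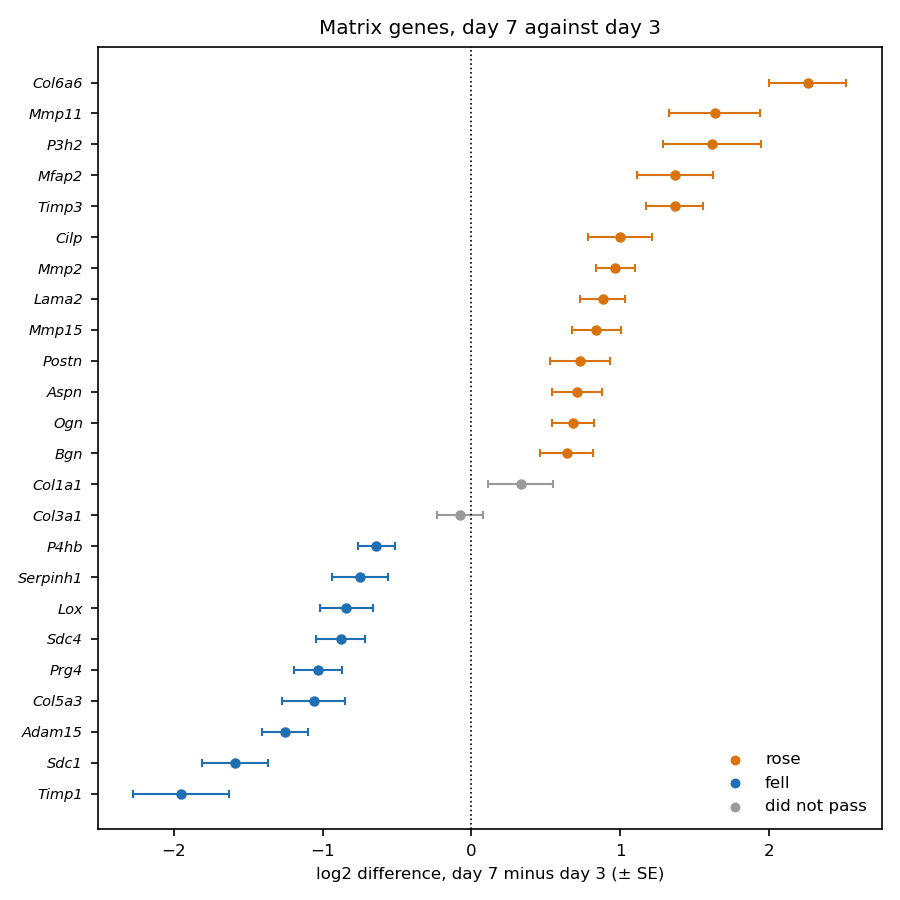
Difference between day 7 and day 3 (horizontal axis, log2, with SE bars from limma, 4 arrays per day) for 24 named genes of the matrix and its processing, sorted by size. Orange marks genes that rose, blue those that fell and grey those that did not pass. Col6a6 lies at the top, Timp1 at the bottom, and Col1a1 and Col3a1 near 0.

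Markers of resident cells of the matrix were mixed. Of 15 fibroblast and fibro-adipogenic progenitor markers 3 rose and 2 fell: Cd34 and Fap, surface proteins of progenitors and activated fibroblasts, rose by 0.67 and 0.59, and Pdpn, podoplanin, and Ptx3 fell, with differences of -1.12 and -3.10. The summed linear signal of these 15 markers was 5973 to 7260 at day 7 and 5848 to 7512 at day 3, ranges that overlapped. Endothelial markers gave 0 rises and 1 fall among 20 by limma's adjusted p (5% called, against 15.3% of all genes). Of the 20, 3 had an unadjusted p under 0.05, and the rises numbered 1 or 2 without some single arrays. Against day 0, 12 of them were lower at day 3 and 10 at day 7. Of 12 pericyte and smooth muscle markers 4 rose (2 without day 3 replicate 1 or 2 or day 7 replicate 3), with Notch3, a receptor of mural cells, at 1.12 ± 0.19 and Abcc9, a subunit of their potassium channel that muscle fibres also carry, at 0.81 ± 0.16. The other Notch3 cluster, dimmer on average, differed by -0.04. Of 6 red blood cell genes 4 fell (0 without day 7 replicate 3, 1 without day 3 replicate 1 or 3 or day 7 replicate 4), and their summed linear signal lay between 701 and 1114 at day 7, between 1149 and 2947 at day 3 and between 248 and 436 at day 0; the part of blood in the other values was not tested. Erbb3, the neuregulin receptor of Schwann cells, was at 4.11, 4.66, 4.44 and 4.79 at day 7 and 6.42, 6.89, 6.45 and 7.15 at day 3, far lower at day 7 (difference -2.23 ± 0.25, adjusted p = 1.2e-05). It was the 1 of 8 Schwann cell markers to change (12.5% called, near the 15.3% of all genes), and 4 of the 8 were dim at both days.

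Among genes of sterol synthesis, 10 of 15 cholesterol synthesis genes fell, with a median of -0.76 and 0 members above 0. Sqle, squalene epoxidase, a rate-limiting step of the pathway, was at 4.21, 4.33, 4.65 and 4.14 at day 7 and 6.27, 6.85, 6.27 and 7.41 at day 3. Each day 3 array was higher than each day 7 array (difference -2.37 ± 0.31, adjusted p = 5.1e-05). Insig1, the sterol-responsive brake of the pathway, Idi1, an isomerase of isoprenoid units, and Msmo1, an enzyme of a later step, fell, with differences of -1.30, -1.03 and -0.94, and Hsd17b7, also of a later step, fell by 1.00. At day 7, 1 member was above day 0 and 3 were below, against 9 above and 1 below at day 3. Among 11 adipocyte markers 3 rose, Scd itself, Cidea, a protein of lipid droplets (1.13 ± 0.24), and Adipoq, adiponectin (1.02 ± 0.28, adjusted p = 0.019). The call of Adipoq was lost without day 3 replicate 2 (adjusted p = 0.061) or day 7 replicate 2 (0.064) and with the day 3 and day 7 arrays alone (0.051). At day 7 Adipoq was below day 0 (-0.77 ± 0.28, adjusted p = 0.044), whereas Cidea and Scd were above it (2.06 ± 0.24 and 3.14 ± 0.40). Fabp4, which is also in the endothelial list, and Cfd, both of the adipocyte list, differed by -0.37 ± 0.18 and -0.23 ± 0.22 without passing.

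Genes of secretion and of stress fell in part. Of 21 chaperones and unfolded protein response genes 12 fell, with a median of -0.56. Sdf2l1, a protein of the endoplasmic reticulum chaperone complex, was at 5.03, 4.73, 4.69 and 4.63 at day 7 and 6.34, 6.39, 6.25 and 6.65 at day 3 (difference -1.64 ± 0.33, adjusted p = 0.0024). The groups did not overlap. Creld2 fell by 1.00, and Pdia6, a disulfide isomerase, and Hyou1, an oxygen-regulated chaperone, fell, with differences of -0.86 and -0.69, while Ddit3, the pro-apoptotic factor CHOP, did not pass (0.23 ± 0.16). In the metallothionein and oxidative stress list 9 of 22 fell and 3 rose. Hmox1, the enzyme that degrades haem, was at 6.19, 6.74, 5.82 and 5.73 at day 7 and 8.31, 8.81, 8.37 and 8.42 at day 3, with no overlap (difference -2.36 ± 0.29, adjusted p = 3.1e-05). Ftl1, ferritin light chain, which stores the iron that haem releases, fell by 0.89 and Gclc, an enzyme of glutathione synthesis, fell by 0.89. Sod3, the extracellular superoxide dismutase, and Mt3, a metallothionein, rose by 1.13 ± 0.17 and 1.17 ± 0.20. Mt2A averaged 8.04 ± 0.42 at day 7 and 9.49 ± 0.13 at day 3 (difference -1.45 ± 0.43, adjusted p = 0.028), a call lost without day 3 replicate 1, 2 or 4 or day 7 replicate 3 or 4 (adjusted p up to 0.080).

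Genes that make ribosomes fell for 13 of 26 members, with a median of -0.40, a count that was 7 without day 3 replicate 2, day 7 replicate 3 or day 7 replicate 4. Ftsj3 and Tsr1, factors of rRNA processing, and Fbl, fibrillarin, fell, with differences of -0.72 ± 0.13, -0.66 ± 0.12 and -0.72 ± 0.18. Of 29 ribosomal protein genes 3 fell (10.3%, near the 9.23% of all genes), a count of 1 to 5 with single arrays left out. Of the 29, 21 were above day 0 at day 7, against 24 at day 3. Of 27 proteasome genes 1 fell (3.7%, against 9.23% of all genes), and it lost its call without any of 5 arrays (day 3 replicate 1, 2 or 4, day 7 replicate 3 or 4). Of 17 atrophy ligase and autophagy genes 3 fell (backgrounds 9.23% falling and 6.02% rising) and 1 rose, a rise lost without any of 8 single arrays or raised to 2 without day 7 replicate 2, and the median was 0.14. The falls included both muscle ubiquitin ligases. Fbxo32, atrogin-1, was at 9.79, 9.92, 9.42 and 9.10 at day 7 and 10.56, 9.95, 10.96 and 10.38 at day 3 (difference -0.91 ± 0.20, adjusted p = 0.0041). Trim63, MuRF1, averaged 9.82 ± 0.25 at day 7 and 10.46 ± 0.13 at day 3 (difference -0.65 ± 0.14, adjusted p = 0.0042), with 9.70 at day 0. Mstn, myostatin, the inhibitor of muscle growth, differed by 0.58 ± 0.31 and did not pass (adjusted p = 0.26).

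Growth and load signals also shifted. Irs1, the adaptor of the insulin and IGF-1 receptors, averaged 7.89 ± 0.34 at day 7 and 6.62 ± 0.08 at day 3 (difference 1.27 ± 0.22, adjusted p = 5.8e-04), still below the day 0 mean of 9.33 (-1.44 ± 0.22, adjusted p = 6.2e-05). Insr, the insulin receptor, and Igfbp6, an IGF-binding protein, rose by 0.79 and 0.64, which made 3 of 14 genes of that system (21.4% called, against 15.3% of all genes). At day 7 Insr was below day 0 (-0.77 ± 0.16, adjusted p = 0.0015) and Igfbp6 above it (2.36 ± 0.14, adjusted p = 1.7e-09). Tgfb3 and Ltbp3, a growth factor of the TGF-beta family and a protein that holds it latent, rose by 0.89 and 0.70, among 6 rises and 2 falls in 31 genes (25.8% called). Of 20 immediate early genes 4 rose, with Egr1 at 1.34 ± 0.25, Dusp1 at 1.01 ± 0.17 and Jun at 0.81 ± 0.12 beside Nr4a1, and 2 fell. Fosl1, a member of the FOS family, fell by 1.72 and Myc, a growth-driving transcription factor, differed by -0.87 ± 0.27 (adjusted p = 0.040). The call of Myc was lost without day 3 replicate 1, 2 or 3 or day 7 replicate 3 or 4 (adjusted p up to 0.14), with the day 3 and day 7 arrays alone (0.070) and with centring on all genes (0.064) or on the brighter 50% (0.053).

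**Figure D5:**
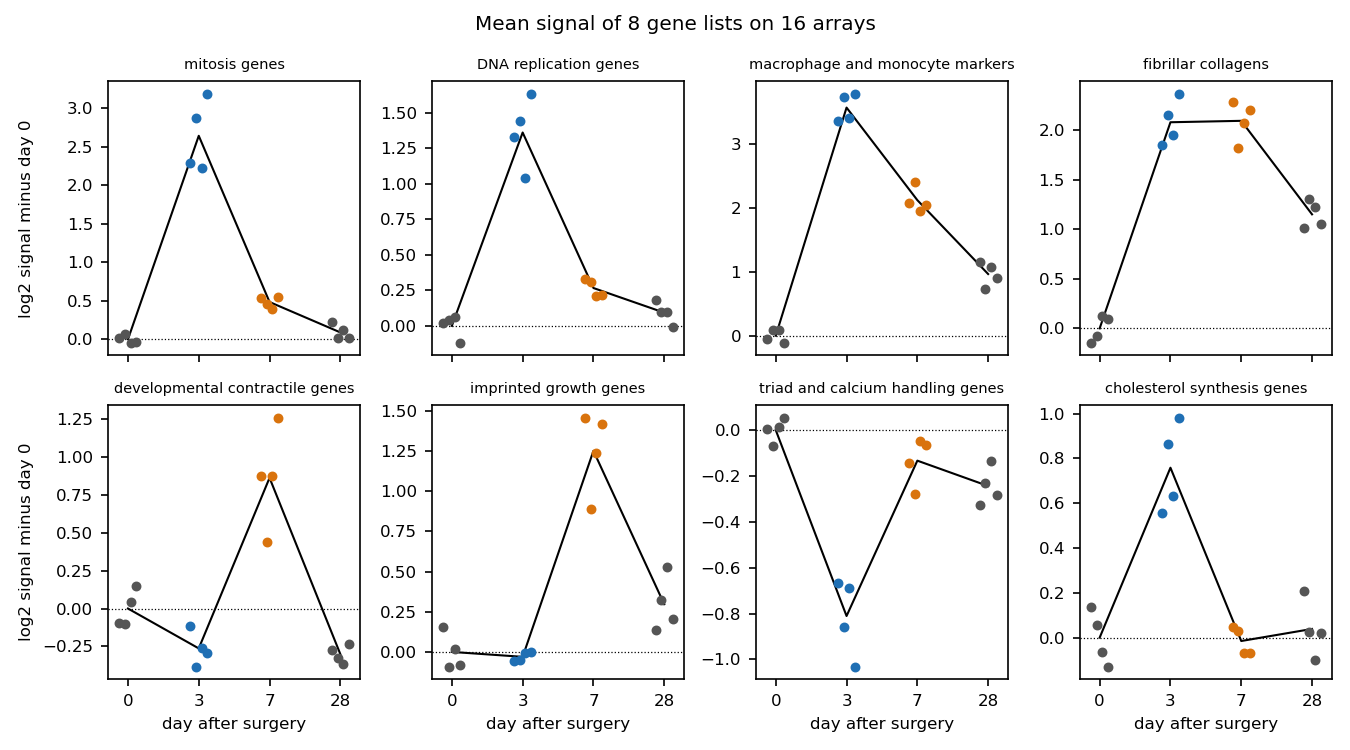
Mean log2 signal of 8 gene lists on each of the 16 arrays, as the difference from the mean of the day 0 arrays (vertical axis), in the order day 0, day 3, day 7 and day 28 (horizontal axis, days evenly spaced, 4 arrays a day). Points are arrays and lines join the day means. Mitosis and replication genes peak at day 3 (means of 2.64 and 1.36) and lie closer to day 0 at day 7 (0.48 and 0.27), macrophage markers average 2.12 at day 7 and 3.57 at day 3, and fibrillar collagens 2.10 at day 7 and 2.08 at day 3. Vertical scales differ between panels.

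Of 26 microRNA genes with a cluster of their own, 1 fell and 1 rose, and 5 had a mean of at least 3 at day 3 or day 7. The clusters measure RNA at the gene, not the mature microRNA. The mature sequences, from RefSeq on GRCr8, are given 5′ to 3′ for the gene that fell, the gene that rose and the muscle microRNA of the list, with the seed (bases 2 to 8), which pairs with targets, in capitals; their seeds differ.
miR-223-3p: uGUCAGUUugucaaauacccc
miR-504: aGACCCUGgucugcacucuguc
miR-206-3p: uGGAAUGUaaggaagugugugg
Mir223, a gene of myeloid cells (chrX:65151450-65151470 for this arm, plus strand), was at 2.73, 3.58, 3.99 and 3.68 at day 7 and 5.20, 5.21, 5.55 and 5.24 at day 3. All day 3 arrays were higher, and the difference was -1.80 ± 0.34 (adjusted p = 0.0014). Mir504 (chrX:142354466-142354487, minus strand), a gene named after its values were seen, was dim at day 3 and differed by 0.90 ± 0.28 (adjusted p = 0.034), a lower bound. The call was lost without day 3 replicate 1, 2 or 4 or day 7 replicate 1, 3 or 4 (adjusted p up to 0.12) and with the day 3 and day 7 arrays alone (0.075). Mir206, a gene of skeletal muscle that myogenic factors control (chr9:30590747-30590768, plus strand), was at 4.15, 4.96, 3.29 and 4.74 at day 7 and 2.20, 3.13, 2.85 and 2.26 at day 3. The groups did not overlap. The cluster was dim at day 3, and the difference of 1.68 ± 0.69, a lower bound, did not pass in the fit of all 16 arrays (adjusted p = 0.12). It passed with the day 3 and day 7 arrays alone (0.0095) and without day 28 replicate 2 (0.034), and its SDs were 0.75 at day 7 and 0.45 at day 3, with 1.03 at day 0 and 1.86 at day 28.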

How the data were processed

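Total RNA of 16 rat plantaris samples was measured on 1-colour Affymetrix Rat Gene 2.1 ST arrays, 4 each at day 7, day 3, day 0 and day 28. The values are log2 signals of 36685 transcript clusters as the authors deposited them. Per the submitters' processing notes, RMA, oligo and limma were used; their versions, settings and annotation are not given in the sources used here. RMA scales all arrays to 1 distribution, which can hide a shift shared by most genes, and it compresses weak signals.

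Of these clusters 15653 are listed in the platform annotation, 14824 of them with 1 symbol and 829 with several; 21032 have none and were left out. The brightest cluster of each gene was kept (14557 genes, of which 14417 have a gene ID in RefSeq's GRCr8 table). limma 3.58.1 in R 4.3.3 was used to fit the mean of each day across all 16 arrays, with Benjamini-Hochberg adjustment over all genes and a threshold of 0.05. No level of one gene is set against that of another. The number of arrays limits the precision. The fit was tested on simulated data.

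Genes were named from the 15 largest rises and the 15 largest falls among calls whose arrays do not overlap between the days (predicted genes passed over), which are all given, and from up to 5 called members of each list in each direction, the 2 largest differences of a list with no call in a direction, and a panel of muscle, matrix and immune genes, of which the text gives part; the rest stand in the counts. Acta1 and Ckm were added as tissue markers. The comparison, the lists and this rule were chosen with earlier results of these data known. Listed genes without a cluster of a single symbol were not analysed here. Deviations of same-numbered arrays of the 2 days correlated at 0.007, 0.028, 0.092 and 0.074, so the numbers were not taken to pair samples. Alternatives changed the variance model, array weights, low-signal filter, centring, cluster choice, arrays fitted and each single array.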

Additional observations from a re-analysis of the deposited data

Results flagged for a closer look

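Among 368 groups of 4 arrays (184 genes named above at day 7 and at day 3), 18 held 1 array whose gap to the nearest other exceeded Dixon's critical share of the group's range for 4 samples. Chance alone gives about 1 in 20 such groups, and all values are log2 signals.

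At day 7, replicate 1 was the highest for Scd (9.77, the others 8.18 to 8.42) and the lowest for Timp3 (8.23, the others 8.46 to 8.50). Replicate 2 was the highest for Clec4d (5.16, the others 2.69 to 3.09) and the lowest for Tceal7 (9.68, the others 10.16 to 10.18). Replicate 3 was the lowest for Serping1 (8.24, the others 8.76 to 8.85) and replicate 4 the highest for Ftl1 (10.78, the others 10.39 to 10.44).

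At day 3, replicate 1 was the lowest for Cd22 (4.63, the others up to 5.02) and Mfap2 (4.36, the others 4.97 to 5.05), and replicate 2 the highest for Sh2d1b (7.11, the others 6.78 to 6.82). Replicate 3 was the highest for Mir223 (5.55, the others 5.20 to 5.24), Mir504 (3.93, the others 2.40 to 2.58) and Trim63 (10.65, the others 10.37 to 10.41), and the lowest for Clec4d (5.61, the others 5.79 to 5.80). Replicate 4 was the lowest for Casq1 (10.92, the others 11.40 to 11.43), Ppargc1b (5.37, the others 5.66 to 5.71) and Serping1 (7.61, the others 8.02 to 8.08), and the highest for Prg4 (10.33, the others 9.78 to 9.85) and Sln (11.13, the others 10.80 to 10.84).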

How the results depend on the processing

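Of 168 named genes that passed the threshold, 158 kept their call and direction under every alternative in which they were tested; the other 10 (Ccr2, Il34, Serping1, Myog, Myod1, Adipoq, Mt2A, Dbp, Mir504 and Myc) lost it without 1 or more single arrays, and Myog, Adipoq, Mir504 and Myc also with only the 8 arrays of both days, Myc also with either centring. Bmal1 and Mir206 gained a call with those 8 arrays and without 1 day 28 array each. The total of 2221 genes was 1702 without day 3 replicate 2 and 2290 without day 3 replicate 3, with 630 to 919 rises and 1039 to 1371 falls over all single arrays left out. The 2-fold count of 635 was 565 without day 3 replicate 4 and 743 without day 3 replicate 3, with 145 to 210 rises and 416 to 537 falls. With the replicate number as a block, 2204 genes changed, 874 up and 1330 down, and the 2-fold count was 635. Centring on all tested genes gave 1374 rises. Leaving out the dimmest 50% of genes gave 403 changes of at least 2-fold, 268 of them falls, with fewer genes tested. All 36685 clusters gave 1092 changes of at least 2-fold, 400 of them rises and 692 falls, with more features tested. With only the 8 arrays of both days, 1779 genes passed.

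Differences that turned sign were among those that did not pass. Ankrd1 was -0.098 after cyclic loess and ranged from -0.037 (without day 3 replicate 3) to 0.204 with single arrays left out, with -0.029 without day 7 replicate 2. Col3a1 was 0.024 with centring on all genes and 0.003 with centring on the brighter 50%, and ranged from -0.171 to 0.011 (without day 7 replicate 2). Perm1 ranged from -0.037 (without day 7 replicate 3) to 0.658, and Timd4 from -0.366 to 0.092 (without day 3 replicate 4), with 0.036 without day 7 replicate 1. The cause was not tested. Dim signals bound the fold changes of the genes given as lower bounds.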

Other observations

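Genes of the circadian clock, whose levels follow the hour at which a muscle is taken, rose for 5 of 11 members between day 3 and day 7, with a median of 0.50, and 3 without day 3 replicate 4. Per3 rose by 0.87 ± 0.19 and Cry2, a repressor of the loop, by 0.70 ± 0.14, and the output factor Dbp by 0.68 ± 0.18 (adjusted p = 0.013). The call of Dbp was lost without day 3 replicate 4 (adjusted p = 0.052) or day 7 replicate 4 (0.051). Bmal1, the activator of the loop, averaged 6.10 ± 0.17 at day 7 and 6.62 ± 0.16 at day 3 and did not pass (difference -0.52 ± 0.25, adjusted p = 0.20). Its 2 groups did not overlap, and it passed with the day 3 and day 7 arrays alone (adjusted p = 0.034) and without day 28 replicate 1 (0.023). The labels give no hour of sampling, and its part in these values was not tested.

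Of 22 potassium and sodium channel genes 4 rose and 1 fell (22.7% called, against 15.3% of all genes), and 8 were dim at both days. Kcnj11, the pore of the ATP-sensitive potassium channel, and Kcnj2, an inward rectifier, rose by 0.70 ± 0.14 and 0.66 ± 0.14, and both stayed below their day 0 means of 8.50 and 8.94 at day 7 (6.94 and 7.87). Kcnn4, a calcium-activated channel known in macrophages and lymphocytes, averaged 4.94 ± 0.31 at day 7 and 6.62 ± 0.22 at day 3 (difference -1.68 ± 0.21, adjusted p = 4.2e-05). Of 32 Wnt pathway genes (18.8% called) 5 rose (2 to 6 with single arrays left out) and 1 fell (0 to 2). The largest rise was that of Dkk3, a secreted modulator (1.24 ± 0.24, adjusted p = 0.0014), followed by Axin2, a feedback target of the pathway (1.07 ± 0.20). Axin2 was below day 0 at day 3 (-1.35 ± 0.20, adjusted p = 3.4e-05). At day 7 it did not pass against day 0 (-0.28 ± 0.20, adjusted p = 0.335), while Dkk3 was above day 0 (2.25 ± 0.24, adjusted p = 1.4e-06). Of 13 Notch pathway genes (23.1% called, median 0.23) 2 rose (1 to 3 with single arrays left out), among them Notch3. The 1 that fell was Lfng, a glycosyltransferase that tunes the receptors (difference -1.06).

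Of 23 amino acid transporter and polyamine genes 3 rose (1 without day 3 replicate 2 or 4) and 6 fell, with Slc7a5, the large neutral amino acid transporter LAT1, at 4.28 ± 0.10 at day 7 and 5.82 ± 0.25 at day 3 (difference -1.54 ± 0.19, adjusted p = 3.1e-05). Of 19 heat shock and load-responsive sarcomere genes 3 rose (1 without day 3 replicate 2 or 3 or day 7 replicate 4) and 4 fell. Of 11 tenocyte markers (27.3% called) 2 rose and 1 fell, and of 15 hypoxia targets (26.7% called) 4 fell. Of 18 interferon response genes (5.56% called) 1 fell (0 to 3 with single arrays left out). Over all genes 15.3% were called.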
